A study of Caenorhabditis elegans with 2 samples.

Results

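Regions in divergent autosomal promoters were examined in ChIP-seq (chromatin immunoprecipitation followed by sequencing) of tagged ZK546.5 from Caenorhabditis elegans. A divergent promoter was taken as the stretch between the starts of a protein-coding gene on the minus strand and its right-hand neighbour on the plus strand, at most 1000 bp apart and with no other protein-coding start between. The members were the regions of the authors' pooled list whose summit (the position of the highest signal in a region) lay in such a stretch on chromosomes I to V. They numbered 378 of the 30000 regions listed, and of the 24800 autosomal ones. The rule used position alone and no signal value. They were set against 2464 autosomal regions whose summit lay 0 to 500 bp upstream of a single start that is in no divergent pair, called single-start regions here.

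The study had 1 group of 2 biological replicates and no other condition. Whole worms of mixed sex at the L4 stage, the last larval stage, came from strain OP231 (unc-119(ed3) III; wgIs231), in which an integrated transgene expresses ZK546.5 with a C-terminal GFP-FLAG tag. Both samples share the unc-119 mutation and the transgene, come from this single line, and mix all tissues of many animals. Which promoter drives the transgene was not stated, and the antibody is labelled ZK546.5 with no epitope. Control libraries named in the labels were not analysed here. The pooled list and the list of each replicate had 30000 regions apiece, peaks together with background. From them the authors derived 92 IDR peaks (irreproducible discovery rate, a measure of how well ranks agree between replicates). The lists carry no read counts, and the depth behind a value is unknown.

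Neighbouring genes that are transcribed away from each other share the DNA between their starts, so a protein bound there lies upstream of both. In the compact worm genome such pairs are common, and they often join genes that are active in most cells. Many worm messages receive a spliced leader, which replaces the original 5' end, so an annotated start may lie downstream of the place where transcription begins.

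The 5 strongest members of chromosomes II to V are printed to show the short words searched later, and the stretches of the remaining chromosome are not printed. Each runs 75 bases to either side of the summit, read from the plus strand of the RefSeq genome of WBcel235, the assembly of ce11. Capitals mark ACCGTA and CCTGCACA or their reverse complements (TACGGT and TGTGCAGG), 2 words already known from earlier results of these data.
F01G4.6 and pfd-1, chrIV:11149726-11149876: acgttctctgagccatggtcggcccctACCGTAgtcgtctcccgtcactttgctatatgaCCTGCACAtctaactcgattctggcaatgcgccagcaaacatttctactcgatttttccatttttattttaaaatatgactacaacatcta
rps-23 and dpm-3, chrIV:12391264-12391414: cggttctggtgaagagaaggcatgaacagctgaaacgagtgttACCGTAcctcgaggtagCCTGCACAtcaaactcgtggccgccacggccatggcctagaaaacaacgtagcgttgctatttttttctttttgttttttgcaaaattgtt
eef-1A.1 and rfc-4, chrIII:6972011-6972161: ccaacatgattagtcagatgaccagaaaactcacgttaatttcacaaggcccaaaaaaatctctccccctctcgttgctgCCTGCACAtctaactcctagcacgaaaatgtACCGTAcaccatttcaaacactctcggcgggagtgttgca
wapl-1 and htz-1, chrIV:4445799-4445949: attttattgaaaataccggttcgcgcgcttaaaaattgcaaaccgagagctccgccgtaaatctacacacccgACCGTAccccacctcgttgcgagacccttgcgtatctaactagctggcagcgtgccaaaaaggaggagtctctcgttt
farl-11 and rpl-33, chrII:7105132-7105282: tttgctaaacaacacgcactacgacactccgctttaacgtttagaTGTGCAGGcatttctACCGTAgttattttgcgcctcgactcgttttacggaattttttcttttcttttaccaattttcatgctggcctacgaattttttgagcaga
Both words stood in all of these but the stretch of wapl-1 and htz-1, which held ACCGTA alone. In the stretch of farl-11 and rpl-33 the longer word ran on the other strand.

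Divergent promoters held a small part of the listed regions and a large part of the autosomal IDR peaks. Of the 54 IDR peaks on the autosomes, which are 0.218% of the autosomal regions, 26 were divergent members (48.1%, 95% exact interval 34.3% to 62.2%). Members made up 1.52% of the autosomal regions. Single-start regions supplied 16 of the 54 peaks (29.6%, 17.98% to 43.6%) and made up 9.94% of the autosomal regions. Of the 378 members, 28 overlapped an IDR peak (7.41%, 4.98% to 10.5%), against 16 of 2464 single-start regions (0.649%, 0.372% to 1.05%) and 0.238% of all autosomal regions. The difference between members and single-start regions was 6.76 percentage points (95% interval 4.49 to 9.86). These intervals cover the counting of regions only, and with 1 group of 2 replicates no test between conditions can be made. The other 350 members were outside the IDR set.

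The 28 comprise the 26 peaks themselves, each in a stretch of its own, and 2 weaker regions that touch the peaks between pqn-59 and taf-4 and between aps-3 and rpl-17. Counted by promoters, 26 of 1665 autosomal divergent pairs held an IDR peak (1.56%, 1.02% to 2.28%). The same held for 16 of 13912 single starts (0.115%, 0.0658% to 0.187%). Single starts whose window is shared with another start stayed among the 13912, while regions in the shared part, as at egl-30, were not counted. Shares and densities over all single starts are therefore on the low side. The stretches searched were of like size, with a median of 475 bp between divergent starts and a window of 500 bp at single starts. They were not alike otherwise, since a divergent stretch serves 2 starts and a window only a single one. The windows may also hold gene bodies, which were not taken out of the counts by promoter or per megabase. Per megabase there were 31.7 IDR peaks between divergent starts, 2.30 upstream of single starts and 0.654 over the autosomes.

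Any listed region, strong or weak, was nearly as common at single starts. A listed summit lay in 366 of the 1665 divergent stretches (22%), and in 2424 of 13912 single-start windows (17.4%). Listed summits numbered 0.461 per kb between divergent starts, 0.354 per kb upstream of single starts and 0.3004 per kb over the autosomes. Of the 366 stretches, 12 held a pair of members.

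**Figure D1:**
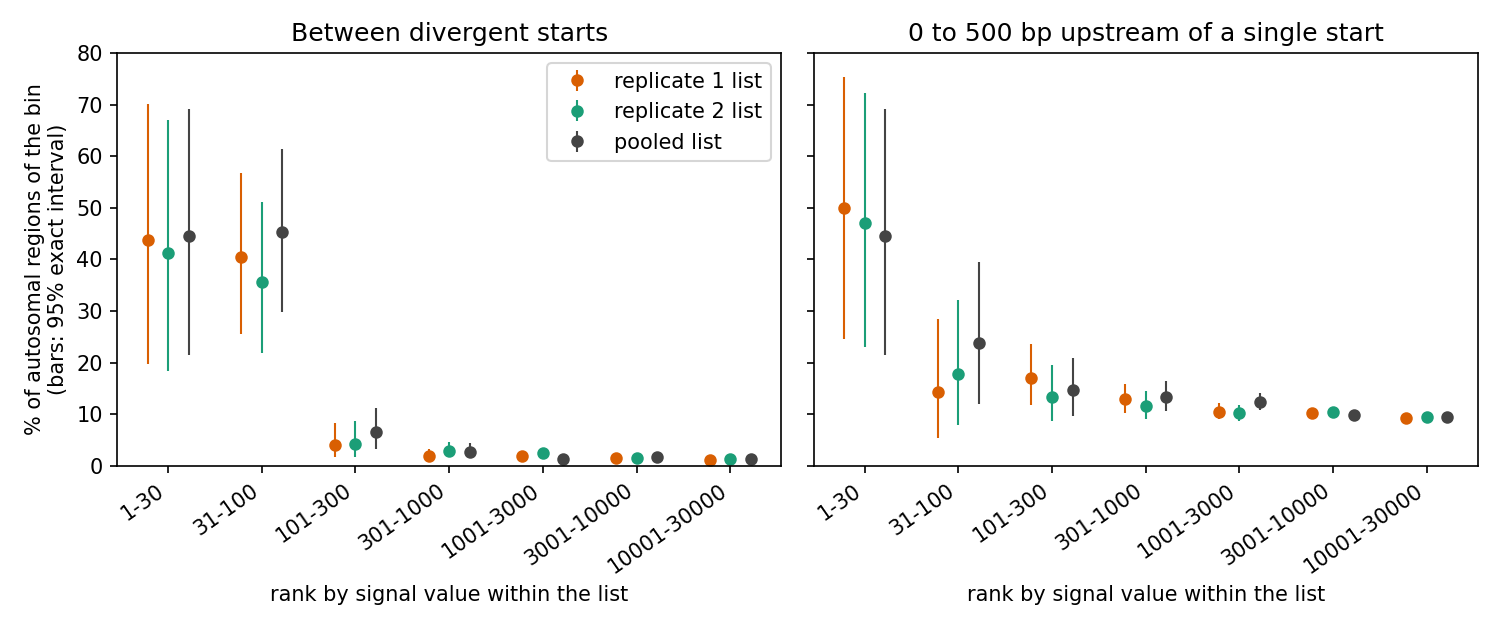
Share of autosomal regions that lay between divergent starts (left) or upstream of a single start (right), by rank of signal value within each list; points are shares and bars 95% exact intervals. In the pooled list the divergent share was 44.4% among ranks 1 to 30 and 45.2% among ranks 31 to 100, and 1.23% beyond rank 10000.

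The strongest 100 regions of each list were often divergent, although few members were among them (27 of 378 in the pooled list, 7.14%). These 27 were the 26 members that are IDR peaks and the one at ska-3 and rps-12. The top pooled ranks thus largely restate the IDR share and are no separate support for it. In the pooled list 8 of the 18 autosomal regions among ranks 1 to 30 were divergent (44.4%), and 19 of 42 among ranks 31 to 100 (45.2%). The share was 6.47% in the next bin, up to rank 300 (11 of 170), and 2.77% from there to rank 1000 (16 of 577). It was 1.23% beyond rank 10000, near the 1.52% of all autosomal regions. Both replicates showed this when their own lists were classed by the same rule. That is no separate support either, since the IDR set rests on the ranks in these lists. Of the 26 members that are IDR peaks, 18 were among the top 100 of both. In replicate 1 the divergent share was 43.8% and 40.5% in the first 2 bins and 1.20% in the last, and in replicate 2 it was 41.2%, 35.6% and 1.33%. Single-start regions were as frequent as members among the pooled ranks 1 to 30 (8 of 18), at 23.8% among ranks 31 to 100, and at 9.50% beyond rank 10000.

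**Figure D2:**
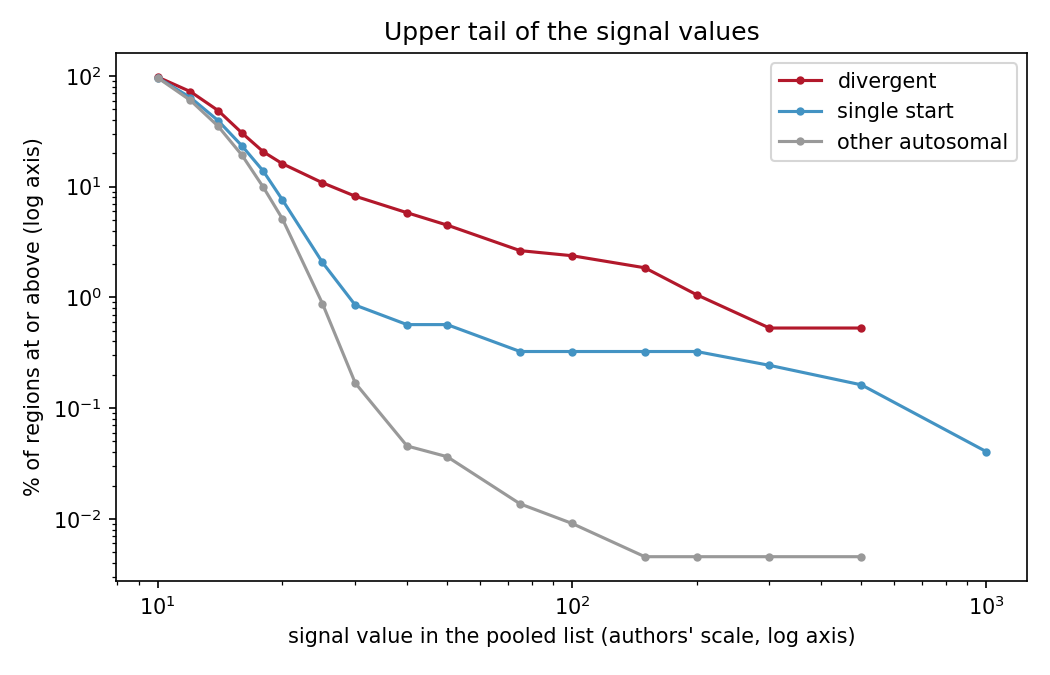
Percentage of regions at or above a signal value in the pooled list (both axes logarithmic) for members, single-start regions and all other autosomal regions. At a signal of 100 or more stood 2.38% of the members, 0.325% of single-start regions and 0.00911% of the others.

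Most members were as weak as other listed regions. The median signal was 13.9 over the members, 13.1 over single-start regions and 12.7 over all autosomal regions, on a scale set by the authors' peak caller. On the log2 scale the members' median lay 0.09 above that of single-start regions. The curves parted further up. The 95th percentile was 44.4 for members and 21.5 for single-start regions, and a signal of 100 or more was reached by 9 of 378 members (2.38%) and 8 of 2464 single-start regions (0.325%). Each of these regions at 100 or more was an IDR peak, so these counts partly restate the IDR share. The strongest regions of all were single-start regions, up to 1072, while the highest member reached 551. Outside the IDR set the medians were 13.5 for members and 13.04 for single-start regions.

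Support in both replicates was also counted. It is not separate from the IDR set, which itself rests on how well replicate ranks agree. Of the 378 members, 103 had their summit inside a listed region of each replicate (27.2%, 22.8% to 32.04%), against 20.2% of single-start regions and 17.2% of all autosomal regions. A further 130 were covered in replicate 1 only, 88 in replicate 2 only and 57 in neither. Among the top 1000 regions of both replicates stood 26 members (6.88%, 4.54% to 9.92%), against 0.69% of single-start regions and 0.266% of all autosomal regions. These 26 comprise 24 of the 28 that overlap an IDR peak, and the members at vps-15 and hmg-12 and at pbs-2 and eif-6. Across the 103 members covered in both replicates the signals had a Spearman rho of 0.673, and across 497 single-start regions one of 0.147. Without regions that overlap an IDR peak the values were 0.292 over 78 members and 0.0594 over 481 single-start regions. These are descriptions, since regions of a library share that library.

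**Figure D3:**
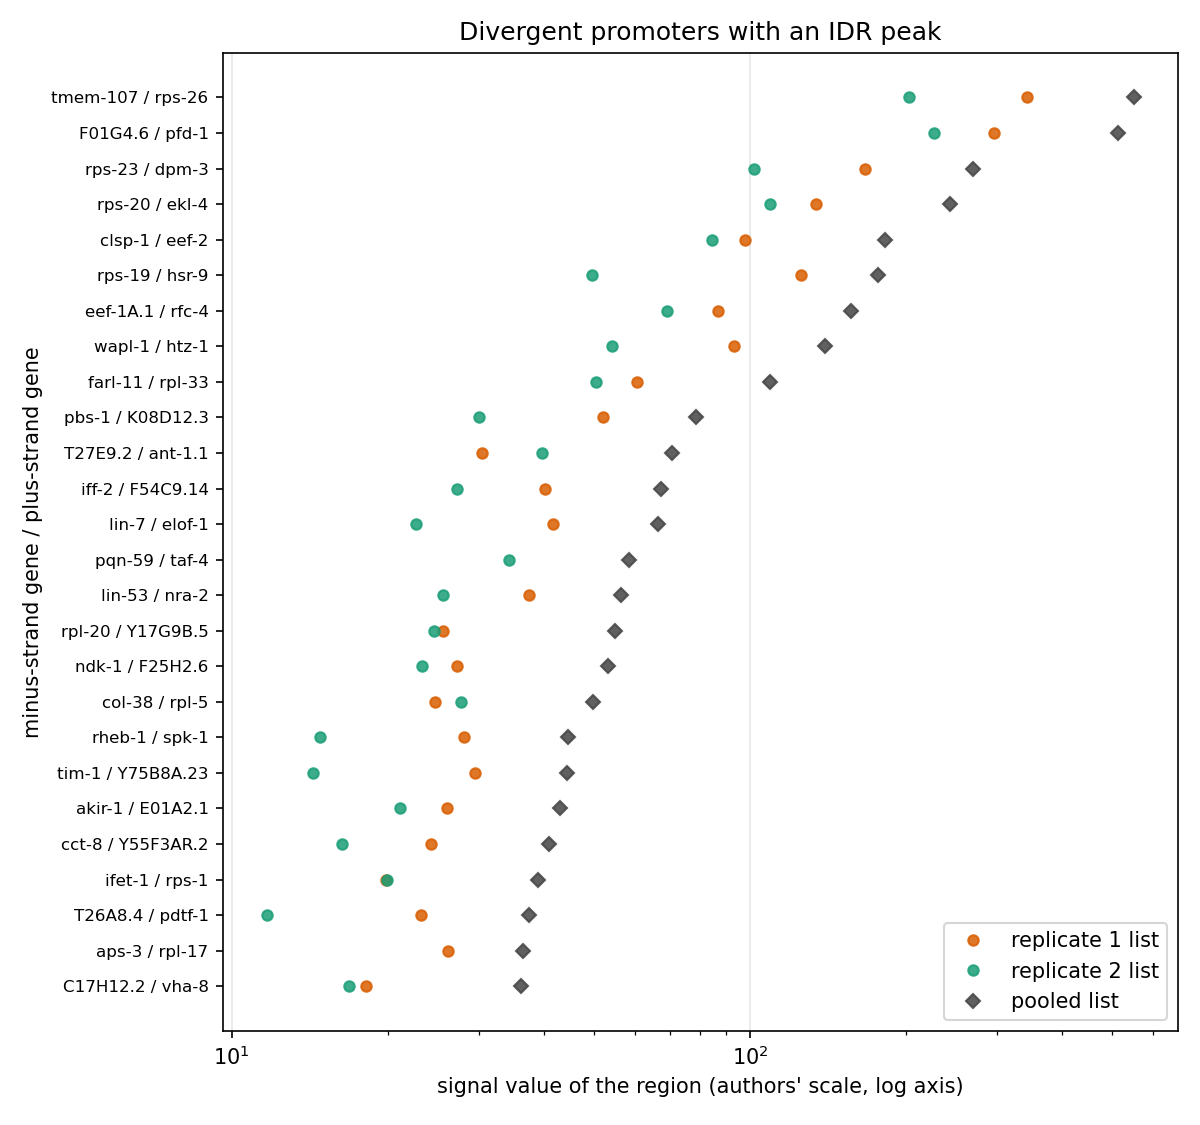
Signal value of each of the 26 members that are IDR peaks (logarithmic axis), in the lists of replicate 1, replicate 2 and both replicates pooled. The values run from 36.1 to 551 in the pooled list; the peak at pqn-59 and taf-4 has no point for replicate 1 and that at aps-3 and rpl-17 none for replicate 2.

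The strongest 2 members lay beside a ribosomal protein gene and a prefoldin gene. Between tmem-107, which acts at the base of cilia, and rps-26, which encodes a protein of the small ribosomal subunit, the signal was 342 in replicate 1, 203 in replicate 2 and 551 in the pooled list (chromosome I from 14759378 to 14759694). Between F01G4.6, which encodes a mitochondrial phosphate carrier, and pfd-1, which encodes a subunit of the chaperone prefoldin, it was 296, 227 and 513 in the same order (chromosome IV from 11149642 to 11149933). These 2 members ranked 4 and 7 in replicate 1 and 6 and 4 in replicate 2.

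Ribosomal protein genes recurred further down. At rps-23 and dpm-3, whose product is a subunit of dolichol-phosphate mannose synthase, the signal was 167 in replicate 1, 102 in replicate 2 and 269 pooled. At rps-20 and ekl-4, the worm relative of the chromatin protein DMAP1, it was 134, 109 and 243. At rps-19 and hsr-9, the relative of the DNA damage protein 53BP1, it was 126, 49.7 and 177. Each of these stretches thus joined a ribosomal protein gene to a gene of another kind.

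Genes of 2 translation elongation factors came next. The member between clsp-1, the claspin gene, and eef-2 had signals of 97.8, 84.7 and 183 in replicate 1, replicate 2 and the pooled list. The member between eef-1A.1 and rfc-4, a subunit gene of replication factor C, had 86.6, 69.2 and 157. Between wapl-1, whose product releases cohesin from DNA, and htz-1, the gene of histone variant H2A.Z, the values were 93.1, 54.2 and 140. All 9 members with a pooled signal above 100 ranked within the top 41 of replicate 1 and the top 34 of replicate 2; the ninth lay between farl-11 and rpl-33 (60.5, 50.5 and 109).

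The next 3 by signal joined housekeeping genes to neighbours that carry a sequence name only. At pbs-1, a gene of the proteasome core, and K08D12.3 the signal was 52.0 in replicate 1, 30.1 in replicate 2 and 78.7 pooled. At T27E9.2 and ant-1.1, which encodes a mitochondrial ADP/ATP translocase, it was 30.4, 39.7 and 70.8, with ranks of 68 in replicate 1 and 38 in replicate 2. At iff-2, the gene of translation factor eIF5A, and F54C9.14 it was 40.2, 27.2 and 67.5.

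The remaining 14 IDR peaks between divergent starts had pooled signals from 36.1 to 66.5. They lay between lin-7 and elof-1, pqn-59 and taf-4, lin-53 and nra-2, rpl-20 and Y17G9B.5, ndk-1 and F25H2.6, col-38 and rpl-5, rheb-1 and spk-1, tim-1 and Y75B8A.23, akir-1 and E01A2.1, cct-8 and Y55F3AR.2, ifet-1 and rps-1, T26A8.4 and pdtf-1, aps-3 and rpl-17, and C17H12.2 and vha-8. Among these genes are lin-53, of a histone-binding chromatin protein, taf-4, of the general transcription factor TFIID, rheb-1, of a GTPase in the TOR pathway, ifet-1, of a partner of the cap-binding protein, and ndk-1, of a nucleoside diphosphate kinase. Replicate support was uneven here. At T26A8.4 and pdtf-1 the rank was 117 in replicate 1 and 1185 in replicate 2. At tim-1 and Y75B8A.23 it was 71 and 316. At pqn-59 and taf-4 the pooled summit lay in no listed region of replicate 1, but a second member 202 bp away ranked 70 there.

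Just below the IDR set replicate support was uneven as well, with ranks far apart at some members and close at others. The 10 strongest members outside it had pooled signals from 26.1 to 35.9. The highest, between ska-3 and rps-12, ranked 75 in replicate 1 and 5085 in replicate 2. The next, between ubq-2 and frg-1, ranked 2454 and 79. At vps-15, a gene of a regulator of phosphatidylinositol 3-kinase, and hmg-12 the ranks were 288 and 222. The others lay at rde-4 and cox-14, K01G5.10 and tasp-1, mtx-1 and dnj-12, pbs-2 and eif-6, copa-1 and gst-43, T16G1.9 and T16G1.18, and rpl-15 and K11H12.8. For comparison, the 5 strongest single-start regions were at wwp-1 (pooled signal 1072), tba-2 (662), sqd-1 (564), icd-2 (553) and sec-61.G (470).

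**Figure D4:**
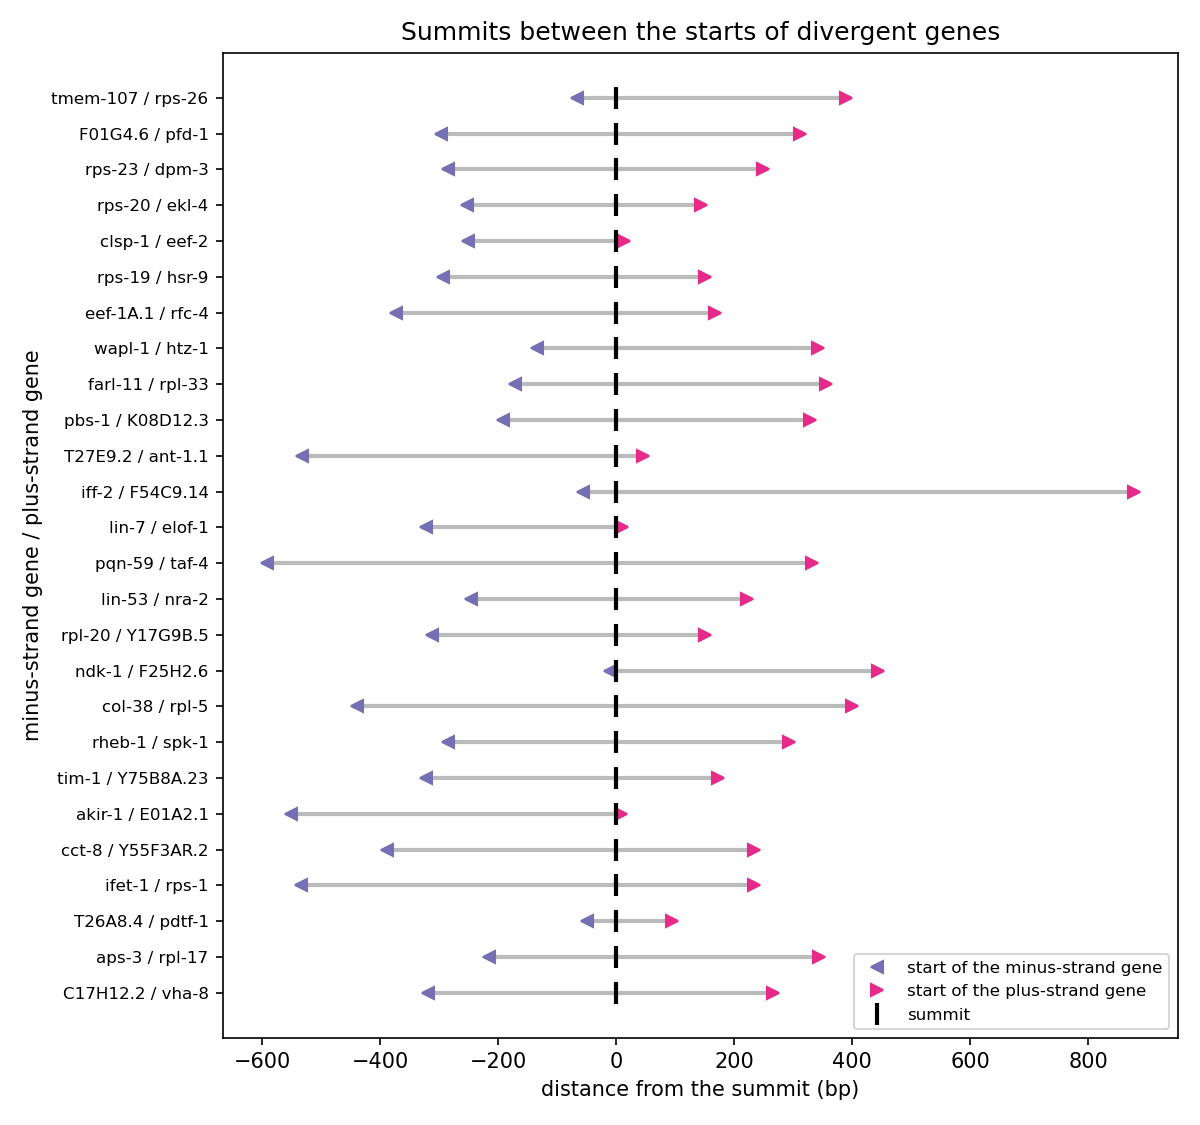
The 26 members that are IDR peaks, in order of pooled signal, with the start of the minus-strand gene (left triangle), the start of the plus-strand gene (right triangle) and the summit at 0; the horizontal axis is distance from the summit in bp. At clsp-1 and eef-2 the summit was 13 bp from the eef-2 start, and at F01G4.6 and pfd-1 it was 297 and 312 bp from the 2 starts.

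Most summits of IDR members lay in the body of the stretch. Of the 28 members that overlap an IDR peak, 19 had the summit in the middle 50% of the stretch (67.9%, 47.6% to 84.1%), against 195 of 350 members outside the IDR set (55.7%, 50.3% to 60.99%). The intervals overlap. The median distance was 159 bp to the nearer start and 342.5 bp to the farther one for IDR members, and 145 and 430.5 bp for the others. Within 50 bp of a start were 6 of the 28 IDR members (21.4%) and 68 of the 350 others (19.4%). The nearer start belonged to the plus-strand gene in 18 of the 28 and in 174 of the 350.

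At most ribosomal protein genes with an IDR peak the nearer start was that of the partner. Of the 9 ribosomal protein genes with an IDR peak in their stretch, the partner's start was nearer in 7, with a median distance of 172 bp to the partner and 312 bp to the ribosomal protein gene. At rps-26 the summit was 390 bp from its start and 67 bp from that of tmem-107. The exceptions were rpl-5 (400 bp, and 439 bp to col-38) and rps-1 (234 bp, and 534 bp to ifet-1). Outside the IDR set both orders occurred as well. Among the members there with a single ribosomal protein gene, the partner's start was also more often the nearer one. The summit was nearer to the partner at rpl-26 (305 bp, and 40 bp to cpf-1). It was nearer to the ribosomal protein gene at rps-12 (131 bp, and 162 bp to ska-3). Whether IDR members differ in this was not tested. Of the 3 translation factor genes, eef-2 (13 bp) and iff-2 (57 bp) were nearer than their partners, while eef-1A.1 was 374 bp away and rfc-4 167 bp. Upstream of single starts the median distance was 246 bp for 16 regions in the IDR set and 261 bp for 2448 outside it.

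Stretches of each length held IDR members, and the intervals of their shares overlap. Where the starts were up to 250 bp apart, 1 of 34 members overlapped an IDR peak (2.94%, 0.0744% to 15.3%). This share was 10 of 109 (9.17%, 4.49% to 16.2%) above 250 and up to 500 bp. Above 500 and up to 1000 bp 17 members overlapped one (7.23%, 4.27% to 11.3%). The median distance between the starts was 531 bp in the 26 pairs with an IDR peak and 475 bp over all 1665 pairs. The 5 members nearest to the limit of 1000 bp from below, at 982 to 993 bp, had signals from 10.3 to 16.2, and the 5 regions just above it, which are no members, at 1003 to 1005 bp, from 10.2 to 14.2. Above 1000 and up to 1200 bp, 1 of 91 regions overlapped an IDR peak.

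No member on chromosome V overlapped an IDR peak. The members overlapping an IDR peak were 11 of 95 on chromosome I, 4 of 60 on II, 5 of 77 on III, 8 of 70 on IV and 0 of 76 on V. A count of 0 among 76 allows a share of up to 3.95% by a limit of 3 regions, and of up to 4.74% by the exact interval. Chromosome V holds 423 divergent pairs, the most of any autosome. For single-start regions the counts were 6 of 429, 5 of 463, 2 of 420, 2 of 482 and 1 of 670 in the same order. On chromosome X, which the rule left out, 80 divergent pairs held 12 listed regions with signals up to 22.6 and 0 of them overlapped an IDR peak, while X carried 19 IDR peaks in all.

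**Figure D5:**
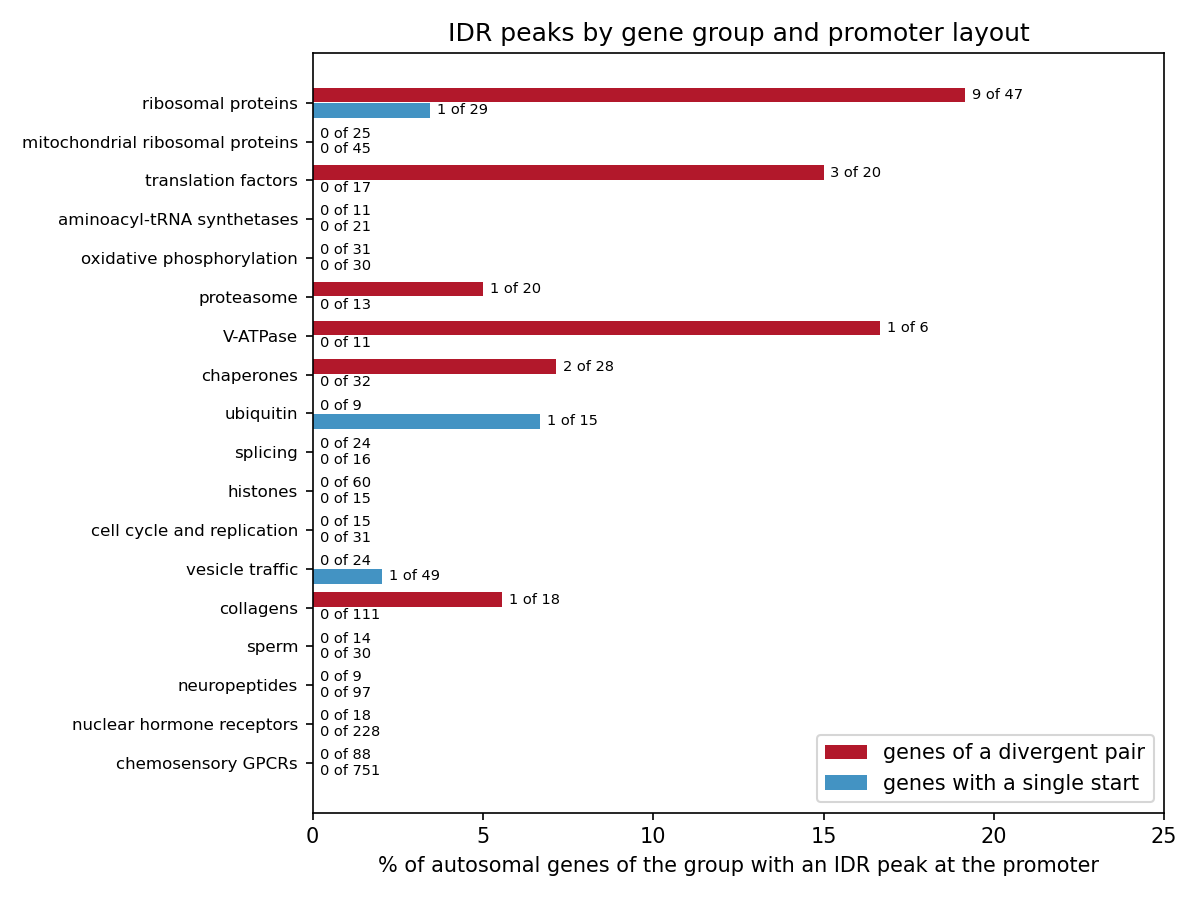
Percentage of autosomal genes of each group with an IDR peak at the promoter, for genes of a divergent pair (red, upper bar) and genes with a single start (blue, lower bar); the counts stand beside the bars, and groups with under 5 divergent genes are left out. Ribosomal protein genes reached 9 of 47 in divergent pairs and 1 of 29 at single starts.

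Ribosomal protein genes were the group with the most IDR peaks in their stretches. The group was taken by the symbol stems rpl- and rps-, so ribosomal protein genes under other symbols are not counted in it. Of 44 autosomal divergent pairs with a ribosomal protein gene, 26 held a listed region and 9 an IDR peak (20.5%), against 1.56% of all divergent pairs. By genes these are 9 of 47 in divergent pairs (19.1%, 9.15% to 33.3%), and 1 of 29 at single starts (3.45%, 0.0873% to 17.8%), namely rpl-41.2. These intervals overlap, and over all promoters the shares were 1.56% of divergent pairs and 0.115% of single starts. Translation factors had 3 of 20 genes in divergent pairs (15%, 3.21% to 37.9%), namely eef-2, eef-1A.1 and iff-2. At single starts they had 0 of 17 (interval up to 19.5%), and these intervals overlap too. That the first group is frequent among the peaks was known from earlier results of these data.

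Other groups had 1 or 2 peaks each, against 1.56% of all divergent pairs. Chaperone genes had IDR peaks in 2 of 25 pairs (8%, 0.984% to 26.03%), at pfd-1 and at cct-8, a subunit of the cytosolic chaperonin. Proteasome genes had 1 of 20 (5%, 0.127% to 24.9%), at pbs-1, and V-ATPase genes 1 of 6 (16.7%, 0.421% to 64.1%), at vha-8. Collagen genes had 1 of 17 (5.88%, 0.149% to 28.7%), at col-38, whose partner is rpl-5. Each of these intervals holds the share of all pairs. The only pair under the heading of mitochondrial import was that of tim-1, which has the stem of the group but encodes a Timeless protein. Of the 26 pairs, 17 held a gene of any of the 21 groups (65.4%), against 394 of the 1665 (23.7%). The 17 include the pair of tim-1. The groups were chosen with earlier results of these data known, so this contrast is a description.

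The remaining groups had 0 IDR peaks in their divergent stretches, and the exact interval of each reaches above the 1.56% of all pairs, up to 4.74% even for the largest group. The groups are symbol stems, so that of the cell cycle and replication misses clsp-1 and rfc-4, which have IDR peaks. At atp-1, a gene of oxidative phosphorylation in a divergent pair, an IDR peak (signal 132) lay just past the start, outside the stretch. The zeros were among 31 pairs with a gene of oxidative phosphorylation, 25 with a mitochondrial ribosomal protein gene, 24 of vesicle traffic, 22 of splicing, 15 with a nuclear hormone receptor, 14 of the cell cycle and replication, 12 of sperm, 11 with an aminoacyl-tRNA synthetase, 9 of the ubiquitin system, 7 with a neuropeptide, 4 with a homeobox gene and 1 with a tubulin. Chemosensory receptor genes formed 76 pairs, of which 17 held listed regions, with signals up to 16.02. The 30 histone pairs held 0 listed regions; histone genes are present in near-identical copies, so their value is uncertain.

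Annotated non-coding starts were more frequent in the stretches with IDR peaks. Such a start lay in 7 of the 26 (26.9%, 11.6% to 47.8%), in 29 of 340 stretches with weaker members only (8.53%, 5.79% to 12.02%) and in 63 of 1299 stretches without a listed region (4.85%, 3.75% to 6.16%). The first 2 intervals overlap slightly. Most were unnamed ncRNA genes, in 6 of the 7. The microRNA gene cel-mir-5549 lay between eef-1A.1 and rfc-4, and sls-2.8, a gene of spliced leader 2, between tim-1 and Y75B8A.23.

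ACCGTA stood within 150 bp of most IDR summits between divergent starts. It was present at 21 of the 26 (80.8%, 60.6% to 93.4%), at 53 of 350 members outside the IDR set (15.1%, 11.6% to 19.3%) and at 5 of 16 single-start IDR peaks (31.2%, 11.02% to 58.7%). Over all autosomal regions, in windows of the same length and on both strands, the share was 8.20%, and over single-start regions outside the IDR set 8.66%. The word had been found in these peaks before, so its presence there is a description. The 21 members held 22 copies, 13 on the plus and 9 on the minus strand, at a median of 36 bp from the summit and at most 72.5 bp from it, and all 22 lay between the 2 starts.

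CCTGCACA went with the highest signals. It was at 7 of the 26 (26.9%, 11.6% to 47.8%), at 1 of 350 members outside the IDR set (0.286%) and at 0.423% of all autosomal regions. It was at 5 of the 16 single-start IDR peaks. The 7 members had a median signal of 183 and the 19 without it one of 53.2, and 6 of the 9 strongest members were among the 7. Each copy was centred within 26.5 bp of the summit. Of the 9 strongest members, 5 held both words, that at rps-26 held CCTGCACA alone, those at rps-20 and htz-1 held ACCGTA alone, and that at rps-19 held neither. In the 5 members with both words the centres were 12, 14, 18, 30 and 34 bp apart.

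All divergent stretches, with or without a listed region, were also searched. Of the 1665 divergent stretches 323 held ACCGTA, and 21 of these had an IDR peak (6.50%), against 5 of 1342 without it (0.373%). Of the windows upstream of single starts 1821 of 13912 held it, and 5 of these had an IDR peak (0.275%). CCTGCACA was in 16 divergent stretches, of which 6 had an IDR peak (37.5%), against 20 of 1649 without it (1.21%). Upstream of single starts 93 windows held it, and 5 of these had an IDR peak (5.38%). Both words were known from earlier results of these data, so these shares are descriptions. At clsp-1 and eef-2 the copy of CCTGCACA lay past the eef-2 start, outside the stretch. Outside the IDR set the median signal was 14.1 for 53 members with ACCGTA and 13.5 for 297 without it.

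Base composition moved with these results. The median GC content within 150 bp of the summit was 37.4% in the 26 members that are IDR peaks and 33.6% in members outside the IDR set. It was 41.4% in single-start IDR peaks, 31.9% in other single-start regions and 32.2% over all autosomal regions. Its part in the results was not tested. Of the other words searched, TATAAA was at 34.6% of the 26 members that are IDR peaks and at 35.9% of autosomal regions. GAGAGA was at 26.9% and 12.9%, GGGCGG at 15.4% and 5.11%, and a run of 8 T at 26.9% and 44.1%. TTTCAG, the form of a worm splice acceptor, was at 30.8% and 52.8%. Only its exact interval (14.3% to 51.8%) leaves out the autosomal share. At the 16 single-start IDR peaks the shares were 12.5% for TATAAA, 37.5% for GAGAGA and 18.8% for GGGCGG. There the run of T was at 25% and TTTCAG at 31.2%.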

How the data were processed

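The labels put both samples in 1 group, numbered as biological replicates. The deposited narrowPeak lists on ce11 were used: the pooled list, the IDR set and a list for each replicate. Per the deposited README text the lists hold peaks and background, were made from alignments with a control file, and gave the IDR set (aligner, peak caller and IDR threshold, not given in the sources used here). Signal is the authors' own value for a region, on a scale they do not state, and was compared only within a list. Lists on ce10 were not used. Depth is unknown.

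Genes came from Ensembl release 115 (WBcel235, the ce11 assembly), by gene record. A member overlapping an IDR peak by 1 bp counted as called; a replicate supported a member when the pooled summit lay in one of its regions. Shares have 95% exact (Clopper-Pearson) intervals and differences Newcombe intervals; regions are not replicates and no test over regions was made. The 21 gene groups are symbol stems. Members, groups and the first 2 words were chosen with earlier results of these data known. Genes were named where their stretch held an IDR peak or 1 of the 10 strongest other members, with the 5 strongest single-start regions. Alternatives covered distance, starts, overlap, thresholds and each replicate. The classing was tested on simulated starts. Python 3.11.15, pandas 2.3.3 and scipy 1.17.1 were used.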

Additional observations from a re-analysis of the deposited data

How the results depend on the processing

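The IDR share stayed higher in members than in single-start regions in all 11 alternatives, by 2.54 to 6.98 percentage points. Of 77 values under alternatives for 10 results, 64 stayed close, 13 moved and 0 reversed. Close meant a share or difference within the main interval, a count or density within 1.5 times, or the log2 ratio within 1 SD. This SD was that of the 2 single-replicate ratios, which are themselves among the values judged. With starts up to 500 bp apart there were 143 members and the log2 ratio of medians was 0.12. With starts up to 2000 bp apart there were 756 members, the IDR share was 4.10% (difference 3.51 points), the share in the top 1000 of both replicates was 3.84% (difference 3.20 points), and the log2 ratio of medians was 0.0427. With the stronger 46 IDR peaks alone the IDR share was 2.91%, against 0.365% of single-start regions (difference 2.54 points). Without replicate 1 and without replicate 2 the share in the top 1000 of the list left was 11.8% in each case (11.7949% and 11.7978%), which asks for 1 list and not both; the log2 ratio of medians was 0.0898 without replicate 1 and 0.0442 without replicate 2. The cause of these moves was not tested. The IDR set was derived from both replicates and stayed the same in these fits. Alternatives for the results on ACCGTA, on the middle 50% and on ribosomal protein pairs were added after the data were seen. So was the counting of IDR peaks alone. These 3 results stayed within their intervals in 7 alternatives each. The intervals are wide and the alternatives reuse many of the same IDR peaks, so this is a weak check. The main value for ACCGTA here was 21 of the 28 members that overlap an IDR peak (75%). No paired analysis was possible because the labels give a single group. The unknown depth limits what the weak regions can show.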

Other observations

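The printed stretches held a further shared piece, read from them after they were seen: ATCNAAC, where N is any base, in 4 of the 5. In 3 of them it shared the last base of CCTGCACA, and in the stretch of wapl-1 and htz-1 it stood without that word. Its centre lay within 30 bp of the summit in 11 of the 26 IDR members (42.3%, 95% exact interval 23.4% to 63.1%), in 16 of 350 members outside the IDR set (4.57%), in 3 of 16 single-start IDR peaks (18.8%) and in 3.02% of all autosomal regions. Since it was read from the same members, this is a description.

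Pairs whose 2 genes belong to 1 gene group numbered 59, of which 30 were histone pairs. Listed regions lay in 5 of them and IDR peaks in 0, where 1.56% of all divergent pairs had one, and 30 of the 59 are uncertain because histone genes have near-identical copies. The ribosomal protein pairs rps-14 and rpl-36, rpl-39 and rps-30, and rps-10 and rpl-24.1 had signals of 22.04, 13.2 and 13.1.

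The 12 autosomal IDR peaks in neither kind of promoter included the one at egl-30 (signal 527), where 2 starts lay within 500 bp, and the one at atp-1 (132), 28 bp past the start of that gene, itself a member of a divergent pair.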
